A study of Macaca mulatta with 10 samples.

Results

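Centre Median was compared directly with Ventral Thalamus on 4 of the 10 arrays of a study of nuclei in the dorsal thalamus of rhesus monkeys (Macaca mulatta). The 4 arrays were those titled with these nuclei, 2 of Centre Median and 2 of Ventral Thalamus, and every animal was adult and untreated. The study set nuclei of the dorsal thalamus against each other to find genes that mark single nuclei, from RNA of small tissue punches hybridised to an Affymetrix array built for human genes. The arrays of each nucleus are numbered as replicates 1 and 2, and the labels name no animal, so p-values measure only the spread between these arrays. How much of that spread is technical is not known. The 2 Ventral Thalamus arrays differed in sex-linked transcripts, as given below. A level below is log2(intensity + 1), and a difference is the Centre Median level minus the Ventral Thalamus level of the same replicate number, averaged over the 2 numbers.

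The centre median is an intralaminar nucleus of the thalamus. It receives output of the basal ganglia and brain stem and sends its main projection back to the striatum. The ventral nuclei relay cerebellar, basal ganglia and body sensory signals to motor and sensory cortex, through large neurons with thick, heavily myelinated axons. In anatomy the name ventral thalamus is also used for the reticular nucleus and its neighbours, which are GABA neurons, but the study places all its nuclei in the dorsal thalamus.

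The 5 markers of thalamic relay neurons were measured in both nuclei, and 0 of them had an adjusted p under 0.05 in limma. As 0.368% of all genes had one, 0 of 5 does not show that the nuclei are alike in these markers. At an unadjusted p under 0.05 in limma LEF1 was higher in Centre Median (3.34% of all genes). SLC17A6 and RORA were lower (5.46% of all genes). TCF7L2, a transcription factor of thalamic neurons, had levels of 12.06 and 12.74 in Centre Median, against 12.38 and 12.76 in Ventral Thalamus. SLC17A6, the vesicular glutamate transporter of these neurons, had 10.47 and 10.81 in Centre Median and 10.87 and 11.54 in Ventral Thalamus. Their adjusted p by limma was 0.899 and 0.217. LEF1, a relative of TCF7L2, differed by 0.84 (adjusted p = 0.187), which was 1.63 with the actin covariate (adjusted p = 0.00817). RORA, a nuclear receptor, differed by -0.50 (adjusted p = 0.406) and PRKCD, a protein kinase C, by 0.13 (adjusted p = 0.871). GABA neuron markers were also present in both: the summed intensity of the 4 measured of 5 was 1840 and 1820 in Centre Median and 2350 and 2800 in Ventral Thalamus. The 5 measured of 6 oligodendrocyte markers summed to 11700 and 14800 in Centre Median, against 14800 and 18200 in Ventral Thalamus. The 6 astrocyte markers summed to 6820 and 10800 in Centre Median and 6480 and 8190 in Ventral Thalamus. Markers of the habenula (1 of 2 measured), of midbrain dopamine neurons (2 of 2) and of subthalamic neurons (1 of 2) differed by 0.02 to 0.13 on the log2 scale.

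Within replicate 1 the arrays also differed in sex-linked transcripts. XIST, which is transcribed from the inactive X chromosome of females, had levels of 8.96 and 9.86 in Centre Median replicates 1 and 2, and of 6.86 and 10.34 in Ventral Thalamus replicates 1 and 2. RPS4Y1, a Y-linked ribosomal gene, had 7.65 and 7.15 in Centre Median, against 8.94 and 6.96 in Ventral Thalamus. The replicate 1 arrays therefore stood apart in both transcripts and the replicate 2 arrays did not, and in replicate 1 a difference of animal and a difference of nucleus cannot be told apart. The actin control, whose 3' minus 5' signal is larger in degraded or incompletely copied RNA, had log2 values of 0.46 and 1.15 in Centre Median and of 1.22 and 1.64 in Ventral Thalamus.

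Most of the 11963 genes differed little between the nuclei. The median difference was 0.001, the median size of a difference was 0.1, and 50.4% of genes lay above 0. A gene was called at a Benjamini-Hochberg adjusted p under 0.05 in limma, fitted to all genes with the replicate number as a block. This called 44 genes, or 0.368% of those tested, of which 23 (0.192%) were higher and 21 (0.176%) were lower in Centre Median, and 1053 genes had an unadjusted p under 0.05. Without the block limma called 1 gene, or 0.00836%, and 194 had an unadjusted p under 0.05. The single gene was MC4R.

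Many of the 44 calls did not hold when the actin signal or the sex-linked transcripts entered the fit. With the actin signal as a covariate limma called 16 genes and 35 of the 44 lost the call. The 9 still called were MC4R, DIRAS3, TPBG, LMO1, DPYSL3, GRM2, ST8SIA4, PCP4 and HS3ST1. CBLN1 then had a difference of 1.47 (adjusted p = 0.145), CRYM of 1.34 (adjusted p = 0.208), CALB2 of 0.97 (adjusted p = 0.318) and NEFH of -1.92 (adjusted p = 0.137). Replicate 1 was also split by whether XIST lay above RPS4Y1, which set Centre Median and Pulvinar apart from the other nuclei. Centre Median replicate 1, with 8.96 and 7.65, lay between Pulvinar (9.60 and 7.22) and the others, so its side is uncertain. With this split limma called 53 genes and 13 of the 44 lost the call. These were TMEM158, CRYM, NEK7, GRM2, BCLAF1, NGLY1, TSPAN9, EPHX1, MPC1, KCND3, RASGRP2, CHST15 and ATP2B1, and for them and the genes lost with the covariate the adjusted p values below come from the fit without these terms. All 44 kept their sign in both fits, and with the actin covariate the differences were, at the median, 0.985 times as large.

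Every one of the 44 called genes differed in the same direction in both replicate numbers. Among all genes 27.7% were higher in both numbers and 28.8% were lower in both, and the fit had used these differences. Both Centre Median arrays lay above both Ventral Thalamus arrays for 23 of 23 genes called higher (9.22% of all genes). Both lay below them for 19 of 21 genes called lower (10.6% of all genes), and the exceptions were ATP2B1 and SHOX2. Across the 11963 genes, which share their arrays and are not independent, the replicate 1 and replicate 2 differences had r = 0.337. Of 33 genes at least 2-fold higher in Centre Median in replicate 1, 27 were also higher and 10 at least 2-fold higher in replicate 2. Of 31 genes at least 2-fold lower in replicate 1, 26 were also lower and 7 at least 2-fold lower in replicate 2.

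**Figure D1:**
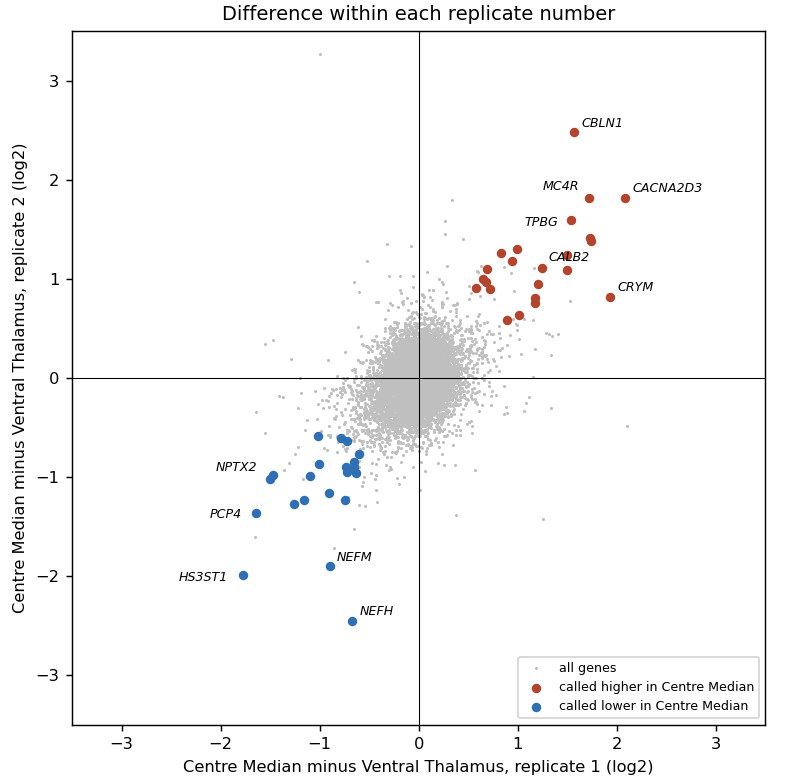
Each point is a gene, with the difference between Centre Median and Ventral Thalamus (log2) in replicate 1 on the x axis and in replicate 2 on the y axis. All 11963 genes are in grey, the 23 genes called higher in Centre Median in red and the 21 called lower in blue; called genes lie along the diagonal, with NEFH at -0.67 and -2.45 among those farthest from it.

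Among the genes higher in Centre Median, MC4R had the smallest adjusted p. MC4R, the receptor through which melanocortin peptides act on appetite and body weight, had levels of 8.25 and 8.17 in Centre Median, against 6.53 and 6.35 in Ventral Thalamus. The arrays of each nucleus lay close together and the nuclei well apart, and the difference was 1.77 (SE 0.119, 3.42-fold, adjusted p = 2.62e-05 with the block and 0.0249 without it). TPBG, a membrane glycoprotein that dampens Wnt signalling, had 7.76 and 7.55 in Centre Median and 6.23 and 5.96 in Ventral Thalamus. It was 2.96-fold higher (difference 1.56, SE 0.144, adjusted p = 0.000501). DIRAS3, a small GTPase of the Ras family that restrains growth, had 7.03 and 6.68 in Centre Median and 5.31 and 5.27 in Ventral Thalamus, and was 2.96-fold higher (SE 0.153, adjusted p = 0.000535). TMEM158, a membrane protein induced by Ras signalling, had 9.39 and 8.25 in Centre Median, against 7.64 and 6.87 in Ventral Thalamus, with a difference of 1.56 (SE 0.259, adjusted p = 0.0241). For all 4 genes both Centre Median arrays lay above both Ventral Thalamus arrays, as for 9.22% of all genes.

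The largest upward differences were those of CBLN1 and CACNA2D3. CBLN1, a secreted protein that bridges neurexins and delta-type glutamate receptors at synapses, had levels of 8.94 and 8.67 in Centre Median and of 7.37 and 6.19 in Ventral Thalamus. Its difference of 2.03 (SE 0.258, 4.08-fold, adjusted p = 0.00327) was the largest upward among called genes, and it was larger in replicate 2 (2.48) than in replicate 1 (1.57). CACNA2D3, an auxiliary subunit of voltage-gated calcium channels, had 9.98 and 9.09 in Centre Median, against 7.91 and 7.28 in Ventral Thalamus (difference 1.95, SE 0.302, adjusted p = 0.0142). SCN2A, a sodium channel found at early axon segments and in unmyelinated axons, had 8.46 and 8.01 in Centre Median and 7.48 and 6.70 in Ventral Thalamus (difference 1.15, SE 0.169, adjusted p = 0.0094). GRM2, an inhibitory metabotropic glutamate receptor of presynaptic terminals, had 8.01 and 7.38 in Centre Median and 7.36 and 6.39 in Ventral Thalamus, where the higher Ventral Thalamus array nearly reached the lower Centre Median array (difference 0.82, adjusted p = 0.0441). PENK, the enkephalin precursor, was 2.08-fold higher, with 7.17 and 7.28 in Centre Median, against 6.24 and 6.10 in Ventral Thalamus (SE 0.152, adjusted p = 0.00803).

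CALB2, NCALD, CRYM and SERPINI1 were also called higher. CALB2, which encodes the calcium buffer calretinin, had levels of 9.39 and 9.25 in Centre Median and of 8.15 and 8.14 in Ventral Thalamus. The arrays of each nucleus lay close together, and the difference was 1.18 (SE 0.201, 2.26-fold, adjusted p = 0.0266). NCALD, the calcium sensor neurocalcin delta, had 7.86 and 7.97 in Centre Median, against 7.18 and 6.87 in Ventral Thalamus (difference 0.89, adjusted p = 0.0241). CRYM, which binds thyroid hormone in the cytosol, had 11.11 and 10.14 in Centre Median and 9.18 and 9.31 in Ventral Thalamus. The gap was 1.93 in replicate 1 and 0.82 in replicate 2, the second smaller than the gap between the Centre Median arrays themselves, and the difference over both was 1.38 (SE 0.229, adjusted p = 0.0241). SERPINI1, a protease inhibitor secreted by neurons, had 11.14 and 10.63 in Centre Median, against 9.64 and 9.55 in Ventral Thalamus (difference 1.29, SE 0.222, adjusted p = 0.0266).

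LMO1, EPHA4, DPYSL3 and B3GALNT1 completed the 15 largest called upward differences. LMO1, a LIM-domain partner of transcription factors, had levels of 7.17 and 6.75 in Centre Median, against 5.67 and 5.51 in Ventral Thalamus, and was 2.59-fold higher (SE 0.161, adjusted p = 0.00184). EPHA4, a receptor for ephrins in axon guidance, had 9.20 and 8.31 in Centre Median and 8.00 and 7.36 in Ventral Thalamus (difference 1.07, SE 0.124, adjusted p = 0.00163). DPYSL3, a collapsin response mediator that acts on the growth cone cytoskeleton, had 8.11 and 8.03 in Centre Median and 7.28 and 6.77 in Ventral Thalamus (difference 1.04, adjusted p = 0.0108). B3GALNT1, a glycosyltransferase of globoside synthesis, had 7.35 and 7.43 in Centre Median, against 6.18 and 6.62 in Ventral Thalamus (difference 0.99, adjusted p = 0.00412). All 4 genes had both Centre Median arrays on top, as had 9.22% of all genes. The 6 remaining genes called higher were named after their values were seen: LRRC17 by 0.96, NEK7, a kinase of the centrosome and of inflammasome assembly, by 0.83, NUDT21, a factor of messenger RNA cleavage, by 0.82, ST8SIA4, which adds polysialic acid to the neural cell adhesion molecule, by 0.81, TTN, the giant muscle protein titin, by 0.75, and BCLAF1 by 0.74.

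**Figure D2:**
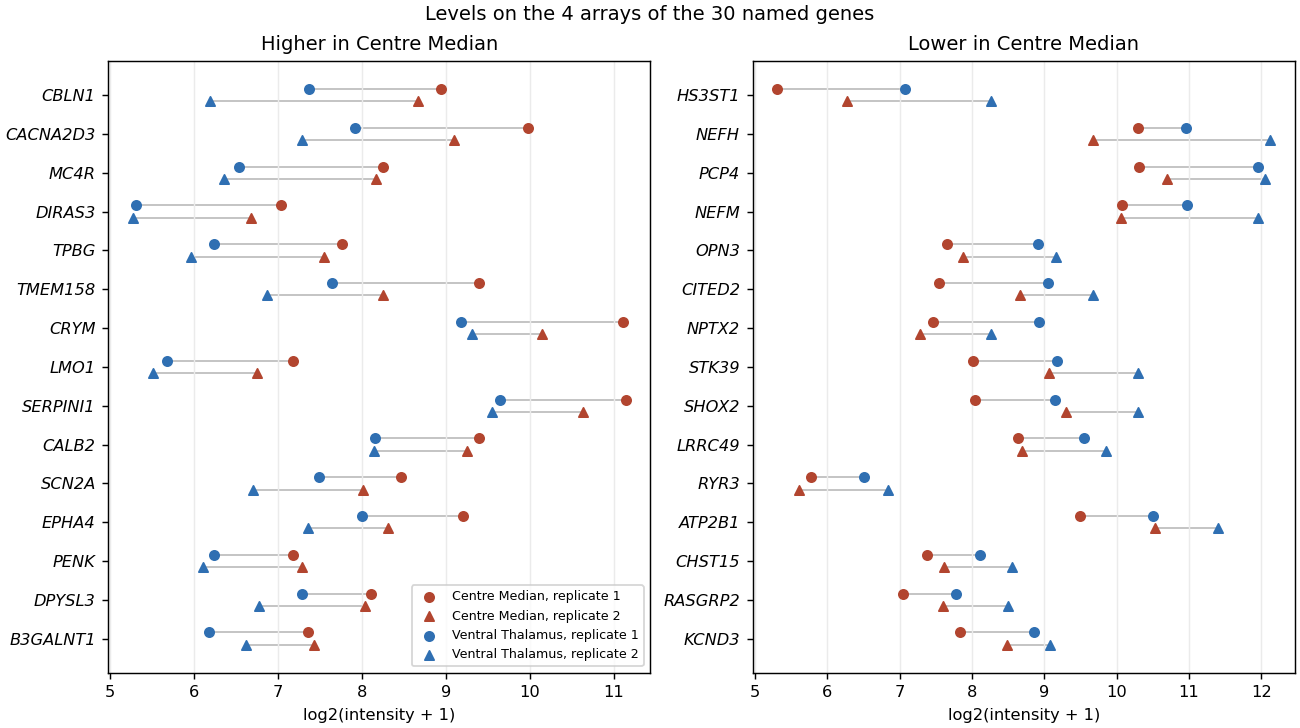
Levels, as log2(intensity + 1) on the x axis, of the 15 genes with the largest called difference in each direction, with Centre Median in red, Ventral Thalamus in blue, circles for replicate 1, triangles for replicate 2 and a grey line joining the arrays of 1 replicate number. The line of NEFH is much longer in replicate 2 and that of CRYM in replicate 1, and for ATP2B1 and SHOX2 Centre Median replicate 2 reached 10.53 and 9.30, above Ventral Thalamus replicate 1 at 10.50 and 9.15.

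Of the 3 neurofilament triplet genes, NEFH and NEFM were called lower in Centre Median. NEFH, the heavy neurofilament subunit that sets axon calibre, had levels of 10.29 and 9.67 in Centre Median, against 10.96 and 12.12 in Ventral Thalamus. It was 2.96-fold lower (difference -1.56, SE 0.296, adjusted p = 0.0464), and the gap was -0.67 in replicate 1 and -2.45 in replicate 2. NEFM, the medium subunit, had 10.08 and 10.06 in Centre Median and 10.98 and 11.96 in Ventral Thalamus (difference -1.40, SE 0.263, adjusted p = 0.0444). Ventral Thalamus replicate 2 was the highest of the 4 arrays for both subunits. NEFL, the light subunit, had gaps of -0.65 and -1.52 in the replicate numbers and missed the threshold (difference -1.08, adjusted p = 0.0744). A second probe set of NEFH differed by -1.24.

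PCP4, ATP2B1, RYR3, STK39 and KCND3 were called lower as well. PCP4, a small protein that binds calmodulin, had levels of 10.31 and 10.69 in Centre Median and of 11.95 and 12.05 in Ventral Thalamus, a 2.82-fold difference (SE 0.183, adjusted p = 0.00227). ATP2B1, a calcium pump of the plasma membrane, had 9.49 and 10.53 in Centre Median, against 10.50 and 11.40 in Ventral Thalamus (difference -0.94, SE 0.170, adjusted p = 0.0355). Its groups overlapped slightly, while the gaps within the replicate numbers were -1.01 and -0.87. RYR3, a calcium release channel of the endoplasmic reticulum, had 5.77 and 5.61 in Centre Median and 6.51 and 6.84 in Ventral Thalamus (difference -0.99, adjusted p = 0.00477). STK39, a kinase that controls sodium, potassium and chloride cotransporters, had 8.01 and 9.06 in Centre Median, against 9.17 and 10.29 in Ventral Thalamus. The replicate 2 arrays of STK39 were higher than the replicate 1 arrays in both nuclei, and the gap between nuclei was -1.16 and -1.23 (SE 0.125, adjusted p = 0.000925). KCND3, a potassium channel of fast A-type current, differed by -0.81 (adjusted p = 0.0444), and 3 other probe sets of the gene differed by 0.01, -0.01 and -0.17.

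The largest downward difference was that of HS3ST1. HS3ST1, which adds a rare sulfate group to heparan sulfate, had levels of 5.31 and 6.27 in Centre Median, against 7.08 and 8.26 in Ventral Thalamus. It was 3.68-fold lower (difference -1.88, SE 0.179, adjusted p = 0.000501), but other probe sets of the gene, at lower levels, differed by -0.13 and 0.18. CHST15, a sulfotransferase of chondroitin sulfate, had 7.38 and 7.61 in Centre Median and 8.11 and 8.56 in Ventral Thalamus (difference -0.84, adjusted p = 0.0381). NPTX2, a secreted pentraxin that gathers AMPA receptors at synapses, had 7.46 and 7.28 in Centre Median, against 8.93 and 8.26 in Ventral Thalamus, and was 2.34-fold lower (SE 0.150, adjusted p = 0.00227). SV2B, a synaptic vesicle glycoprotein, had 8.40 and 8.59 in Centre Median and 9.05 and 9.49 in Ventral Thalamus (difference -0.77, adjusted p = 0.0497).

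OPN3, a non-visual opsin, was the steadiest of the remaining genes lower in Centre Median. Its levels were 7.66 and 7.88 in Centre Median and 8.92 and 9.16 in Ventral Thalamus, with gaps of -1.26 and -1.27 in the replicate numbers (SE 0.145, adjusted p = 0.00163). CITED2, which binds a transcriptional coactivator and limits the hypoxia response, had 7.55 and 8.67 in Centre Median, against 9.05 and 9.68 in Ventral Thalamus (difference -1.26, adjusted p = 0.00163). SHOX2, a homeobox factor of thalamic neurons in the mouse, had 8.04 and 9.30 in Centre Median and 9.15 and 10.29 in Ventral Thalamus (difference -1.05, adjusted p = 0.0266), and its other probe sets differed by -0.41 and -0.05. LRRC49, a part of the complex that adds glutamate chains to tubulin, differed by -1.03 (adjusted p = 0.00638). RASGRP2, an exchange factor for Rap GTPases, differed by -0.82 (adjusted p = 0.0266), with -0.45, -0.41 and 0.10 at its other probe sets. The last 5 genes called lower were named after their values were seen: DEXI by -0.80, MPC1, a subunit of the carrier that brings pyruvate into mitochondria, by -0.75, EPHX1, an epoxide hydrolase, by -0.69 (log2 level of 7.53 and 7.66 in Centre Median and 8.31 and 8.27 in Ventral Thalamus), TSPAN9 by -0.68, and NGLY1, which strips sugar chains from misfolded proteins, by -0.68.

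How far the calls rest on single arrays varied among the genes. In limma with the block, 6 of the 44 genes were still called when any 1 of the 4 arrays was left out, namely MC4R, DIRAS3, TPBG, STK39, OPN3 and HS3ST1. LMO1, EPHA4, NPTX2 and CITED2 lost the call without Centre Median replicate 1 alone, with adjusted p of 0.0712, 0.0712, 0.083 and 0.0712. CBLN1 lost it without replicate 2 of either nucleus (adjusted p of up to 0.0626), and CACNA2D3 and PCP4 when either Centre Median replicate 1 or the second Ventral Thalamus array was left out (up to 0.289 and 0.083). NEFH and NEFM were called only when Ventral Thalamus replicate 1 was the array left out, and otherwise had adjusted p of up to 0.517 and 0.484. A further 15 genes, among them CALB2, SERPINI1 and SHOX2, were called in none of these 4 fits. Leaving out Centre Median replicate 1 gave 8 calls and leaving out its replicate 2 gave 19, while leaving out Ventral Thalamus replicate 1 gave 41 and its replicate 2 gave 17. The fit to the 4 arrays alone called 524 genes, or 4.38%; it has 1 residual degree of freedom, and limma then took the spread of a gene from the trend over all genes.

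The nuclei outside the comparison were set beside the called genes. The mean of Anterior Thalamus, Medial Thalamus and Pulvinar was placed on the line between the 2 means which was cut into 3 equal parts, and was called next to a nucleus when it lay in the part at that end or beyond, as a description with no test. For 10 of the 23 genes higher in Centre Median it lay next to Ventral Thalamus, and these were MC4R, TPBG, DIRAS3, LMO1, CBLN1, CRYM, SERPINI1, TMEM158, CACNA2D3 and LRRC17. That mean pools nuclei that differ. CBLN1 averaged 8.81 in Centre Median and 6.78 in Ventral Thalamus, but 7.93 in Medial Thalamus, whose replicate 1 at 8.86 lay above Centre Median replicate 2. TMEM158 averaged 8.82 in Centre Median and 7.26 in Ventral Thalamus, with 8.02 in Medial Thalamus. CACNA2D3 averaged 9.54 in Centre Median and 7.59 in Ventral Thalamus, with 8.01 to 8.39 elsewhere. The values of MC4R, LMO1 and SERPINI1 lay closer together in the other nuclei. MC4R had a mean level of 8.21 in Centre Median and of 6.44 in Ventral Thalamus, and means of 6.33 to 6.53 in the other 3 nuclei. LMO1 averaged 6.96 in Centre Median and 5.59 in Ventral Thalamus, and 5.56 to 5.65 elsewhere. SERPINI1 averaged 10.88 in Centre Median and 9.59 in Ventral Thalamus, and lower still, 9.08 to 9.32, elsewhere. For 4 of the 23 the other nuclei lay next to Centre Median, and these were CALB2, SCN2A, B3GALNT1 and NUDT21. CALB2 averaged 9.32 in Centre Median, 8.14 in Ventral Thalamus and 8.92 to 10.05 elsewhere. The remaining 9 lay between.

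Among the 21 genes lower in Centre Median, the other nuclei lay next to Centre Median for 8, which were NEFH, NEFM, OPN3, STK39, MPC1, DEXI, TSPAN9 and NGLY1. NEFH averaged 9.98 in Centre Median, 11.54 in Ventral Thalamus and 9.32 to 10.10 elsewhere. MPC1 averaged 7.43 in Centre Median, 8.18 in Ventral Thalamus and 7.42 to 7.46 elsewhere. OPN3 was less even: it averaged 7.77 in Centre Median and 9.04 in Ventral Thalamus, with 7.38 in Medial Thalamus but 8.65 in Pulvinar. The other nuclei lay next to Ventral Thalamus for 3, which were NPTX2, CHST15 and KCND3. NPTX2 averaged 7.37 in Centre Median, 8.60 in Ventral Thalamus and 8.04 to 8.69 elsewhere. CHST15 averaged 7.49 in Centre Median and 8.33 in Ventral Thalamus, with 7.75 in Medial Thalamus but 8.59 in Pulvinar. PCP4 fell between, with means of 11.21 to 11.69 in the other nuclei, as did HS3ST1, which averaged 5.79 in Centre Median, 7.67 in Ventral Thalamus and 5.56 to 6.96 elsewhere. Over both directions 13 of the 44 genes had the other nuclei next to Ventral Thalamus, 12 next to Centre Median and 19 between.

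**Figure D3:**
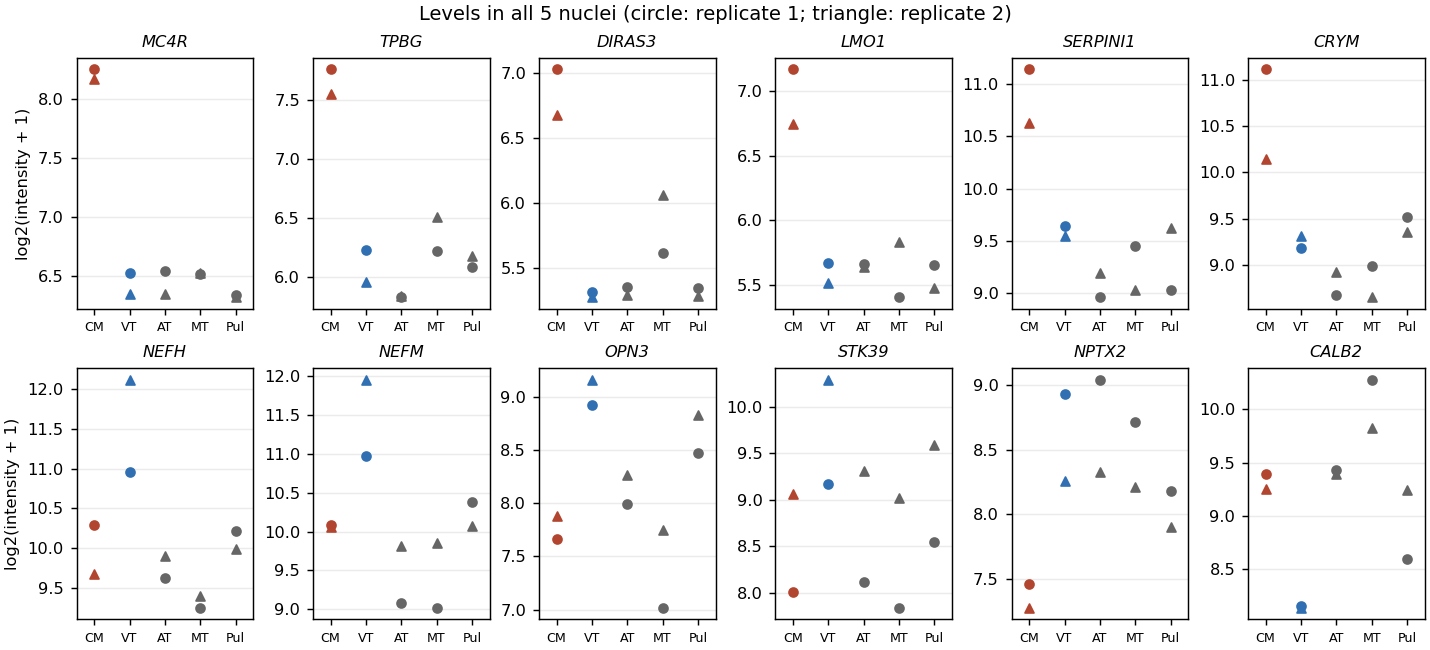
Levels of 12 called genes, as log2(intensity + 1), in Centre Median (CM, red), Ventral Thalamus (VT, blue), Anterior Thalamus (AT), Medial Thalamus (MT) and Pulvinar (Pul), with a circle for replicate 1 and a triangle for replicate 2; each panel has its own scale. In the upper row Centre Median lies above the other 4 nuclei, in the lower row Ventral Thalamus is highest for NEFH, NEFM and OPN3, Centre Median is lowest for NPTX2, and Ventral Thalamus is lowest for CALB2.

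Gene lists describe how related genes were placed, by counts and medians, beside the median of 0.001 over all genes and the shares of all genes with an unadjusted p under 0.05, 3.34% higher and 5.46% lower. As limma called 0.368% of all genes, 0 calls in a list is near the share over all genes. The 14 measured of 20 fast-firing relay neuron genes had a median of -0.42, and 12 lay below 0. NEFH and NEFM were called, and 8 were lower and 0 higher at an unadjusted p under 0.05. VAMP1, a vesicle fusion protein, had levels of 7.29 and 8.11 in Centre Median and of 8.15 and 9.83 in Ventral Thalamus (difference -1.29, adjusted p = 0.0744). PPARGC1A, a coactivator of mitochondrial biogenesis, had 6.2 and 7.45 in Centre Median, against 6.78 and 8.54 in Ventral Thalamus (difference -0.83, adjusted p = 0.107). In the other nuclei VAMP1 averaged 7.63 to 7.72 and PPARGC1A 6.46 to 6.93, next to Centre Median at 7.7 and 6.83. The list's median was -0.22 in replicate 1 and -1.01 in replicate 2, and it was -0.69 with the actin covariate and -0.96 when replicate 1 was split by the sex-linked transcripts. The list of neurofilaments and axonal cytoskeleton, which holds NEFH, NEFM and NEFL too, had a median of -0.30 with 18 of 24 below 0, and of -0.19 after quantile normalisation. In it INA, a further neurofilament subunit, differed by -0.81 (adjusted p = 0.102), and MAP2, a protein of dendritic microtubules, by 0.63 (adjusted p = 0.336).

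Energy metabolism genes were placed lower in Centre Median than in Ventral Thalamus nearly throughout, by small amounts and without a single call. Of 62 measured genes of the respiratory chain and ATP synthase, which make ATP in mitochondria, 61 lay below 0, with a median of -0.28 and a range from -0.59 to 0.12. limma called 0 of them, and 24 were lower and 0 higher at an unadjusted p under 0.05. COX7A2, a subunit of cytochrome oxidase, had levels of 9.08 and 9.94 in Centre Median, against 9.73 and 10.48 in Ventral Thalamus (difference -0.59, adjusted p = 0.159), and ATP5PB, of the stalk of ATP synthase, had 9.41 and 9.57 in Centre Median and 9.90 and 10.16 in Ventral Thalamus (difference -0.54, adjusted p = 0.125). In replicate 1 the list's median was -0.12 and in replicate 2 it was -0.42, and 48 of 62 lay below 0 in both. Citric acid cycle and mitochondrial biogenesis genes had a median of -0.32 with 21 of 25 below 0, of which SUCLA2, a succinyl-CoA ligase subunit, differed by -0.57 (adjusted p = 0.27). Glycolysis and lactate genes had a median of -0.22 with 18 of 19 below 0, among them ENO2, the neuronal enolase, at -0.79 (adjusted p = 0.0896). Of the citric acid and glycolysis lists limma called 0 genes, with 13 and 6 lower at an unadjusted p under 0.05. COX7A2 averaged 9.51 in Centre Median, 10.11 in Ventral Thalamus and 9.37 to 9.85 in the other nuclei. The mean of the other nuclei lay next to Centre Median for COX7A2, ATP5PB and SUCLA2, and between for ENO2. These values come from whole punches, in which fewer cells of a type and less RNA per cell cannot be told apart.

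The medians depended in size on the actin signal and on the scaling. With the actin covariate the respiratory chain median was -0.34 with 54 of 62 below 0, and after quantile normalisation it was -0.18 with 55 below 0. Split by XIST and RPS4Y1 it was -0.34 with 59 below 0. For glycolysis the median was -0.26 with the covariate and -0.09 after quantile normalisation.

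**Figure D4:**
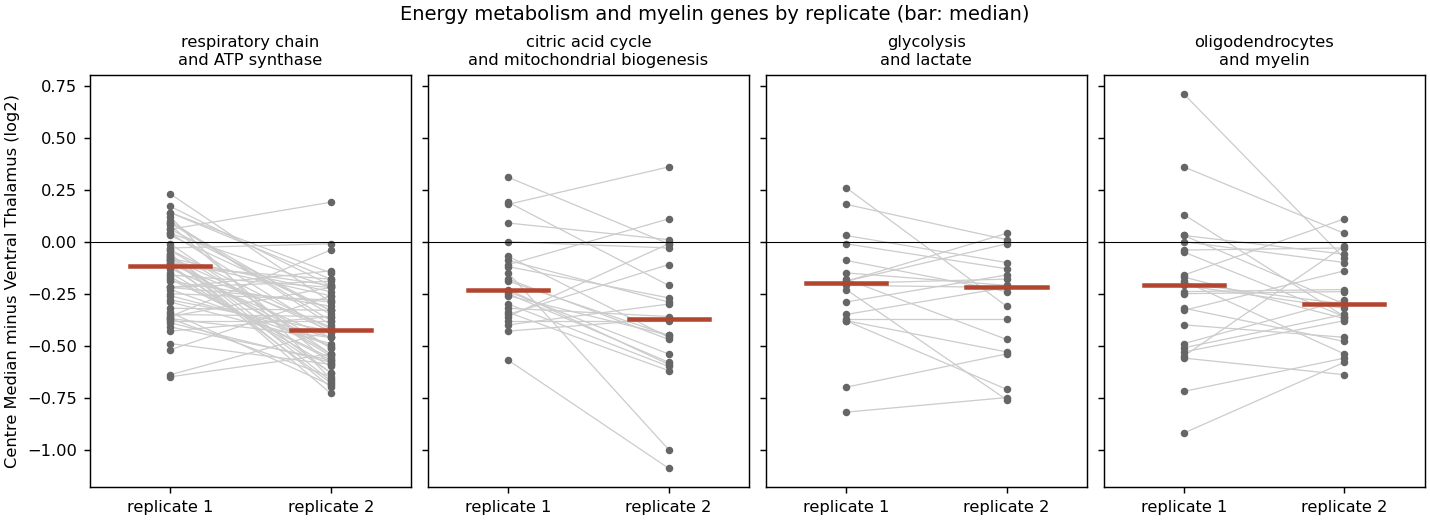
Difference between Centre Median and Ventral Thalamus (log2) in replicate 1 and replicate 2 for the members of 4 gene lists, with a line joining each gene and a red bar at the median. Most points lie below 0, with medians of -0.12 and -0.42 for the respiratory chain and of -0.21 and -0.30 for myelin.

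Myelin genes were also placed lower in Centre Median than in Ventral Thalamus. Of 25 measured oligodendrocyte and myelin genes 23 lay below 0, with a median of -0.25, and limma called 0, with 8 lower and 0 higher at an unadjusted p under 0.05. CNP, an enzyme of myelin sheaths, had levels of 9.34 and 9.76 in Centre Median, against 10.26 and 10.34 in Ventral Thalamus (difference -0.75, adjusted p = 0.13). TF, which encodes the iron carrier transferrin made by oligodendrocytes, differed by -0.60 (adjusted p = 0.0604), and MAG, an adhesion protein of the inner myelin membrane, by -0.64 (adjusted p = 0.12). CNP averaged 9.55 in Centre Median, 10.3 in Ventral Thalamus and 9.25 to 9.55 in the other nuclei. TF averaged 8.15, 8.75 and 7.77 to 7.97 in that order, and MAG 8.36, 9.0 and 7.77 to 8.33. For CNP, TF and MAG the mean of the other nuclei thus lay beyond Centre Median, away from Ventral Thalamus. With the actin covariate the median was -0.17. The share of this cell type in the differences of axonal and metabolic genes was not tested.

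Sodium channel genes were mostly placed higher in Centre Median. Of 10 measured sodium channel subunits and their modulators 9 lay above 0, with a median of 0.40. SCN2A was called, and 5 were higher and 1 lower by unadjusted p below 0.05. SCN3A, a channel prominent in the developing brain, had levels of 7.55 and 7.33 in Centre Median and of 6.92 and 6.21 in Ventral Thalamus (difference 0.88, adjusted p = 0.101). FGF13, an intracellular modulator of these channels, had 9.60 and 10.03 in Centre Median, against 8.65 and 9.43 in Ventral Thalamus (difference 0.77, adjusted p = 0.0898). SCN1A, the channel of fast-spiking neurons, was the member below 0: it had 6.89 and 8.43 in Centre Median and 6.88 and 9.56 in Ventral Thalamus, so that replicate 1 showed no gap (difference -0.56, adjusted p = 0.514). With the actin covariate the median was 0.42, with 3 of the 10 below 0.

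Other ion channels and calcium genes split in both directions. The 37 measured potassium and HCN channel genes had a median of 0.01 with 19 above 0, and KCND3 was the 1 called. KCNB2, a delayed rectifier, differed by 0.58 (adjusted p = 0.0931) and KCNH2, which carries a slowly closing current, by -0.55 (adjusted p = 0.135). Calcium channel subunits had a median of 0.01 over 16 genes; beside CACNA2D3, the P/Q-type channel CACNA1A differed by -0.59 (adjusted p = 0.124) and the T-type channel CACNA1I by -0.46 (adjusted p = 0.273). Among 17 calcium pumps, stores and exchangers ATP2B1 and RYR3 were called lower, the pump ATP2B2 differed by -0.66 (adjusted p = 0.0741), and ITPR1, the inositol trisphosphate receptor, by 0.89 (adjusted p = 0.13). Of 24 measured calcium-binding proteins CALB2 and NCALD were called higher and PCP4 lower, and the median was -0.17 with 15 below 0. CALB1, the buffer calbindin, ranged from 5.71 to 8.69 between the Centre Median arrays and had 7.26 and 8.35 in Ventral Thalamus (adjusted p = 0.844), so its replicates differed by more than the nuclei.

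Among receptor families for the main transmitters GRM2 was the only gene called. GABA-A receptor subunits had 0 calls among 12, with 1 higher and 3 lower by unadjusted p below 0.05. In that family GABRB1 differed by 0.72 (adjusted p = 0.171) and GABRA5 by -0.44 (adjusted p = 0.537). AMPA, kainate and NMDA receptor genes had 0 calls among 19 and a median of 0.03, with 1 gene in each direction at an unadjusted p under 0.05. The metabotropic glutamate list had GRM2 called among 22, and GRM3, its closest relative, had levels of 9.06 and 9.14 in Centre Median, against 7.89 and 8.85 in Ventral Thalamus (difference 0.73, adjusted p = 0.27). Acetylcholine receptor and esterase genes had 0 calls among 15, with 1 higher and 1 lower by unadjusted p below 0.05. ACHE, the enzyme that breaks down acetylcholine, had 7.64 and 7.47 in Centre Median and 7.04 and 6.84 in Ventral Thalamus (difference 0.62, adjusted p = 0.0973). Both Centre Median arrays lay above both Ventral Thalamus arrays, which held for 9.22% of all genes.

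Neuropeptide genes showed some of the widest spreads. PENK was the 1 precursor called among 29, which had a median of 0.09, and 7 were higher and 5 lower by unadjusted p below 0.05. SST, the precursor of somatostatin, had levels of 7.46 and 7.0 in Centre Median, against 9.10 and 8.61 in Ventral Thalamus; the groups lay well apart, but the gene missed the threshold (difference -1.63, adjusted p = 0.13). NTS, the neurotensin precursor, had 9.87 and 9.67 in Centre Median and 10.87 and 6.40 in Ventral Thalamus, so that the replicate numbers gave opposite gaps (adjusted p = 0.759). CRH, the corticotropin-releasing hormone precursor, differed by -0.96 (adjusted p = 0.212) and NPY, the neuropeptide Y precursor, by 0.78 (adjusted p = 0.152). Among 60 receptors of peptides and monoamines MC4R alone was called, 38 lay above 0 and the median was 0.05. ADRA2A, an inhibitory noradrenaline receptor, differed by 0.78 (adjusted p = 0.0744) and OPRK1, the kappa opioid receptor, by -0.99 (adjusted p = 0.176).

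The midline and intralaminar profile had a median of 0.44 over 16 measured of 20 genes, with 12 above 0 and CALB2, CBLN1, PENK, CRYM and CACNA2D3 called. Of the 4 below 0, CRH differed by -0.96 (adjusted p = 0.212) and CALB1 by -0.61 (adjusted p = 0.844). NTS, a further member, had opposite gaps of -1.0 and 3.27 in the replicate numbers. CRYM, ETV1 and CACNA2D3 were placed in this list with their higher level in Centre Median already known, so the count is not independent of these arrays. Without those 3 genes the median was 0.15 over 13, with 9 above 0 and 3 called. The median was 0.06 in replicate 1 and 0.37 in replicate 2 for the 16 genes, and 0.02 and 0.34 for the 13.

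**Figure D5:**
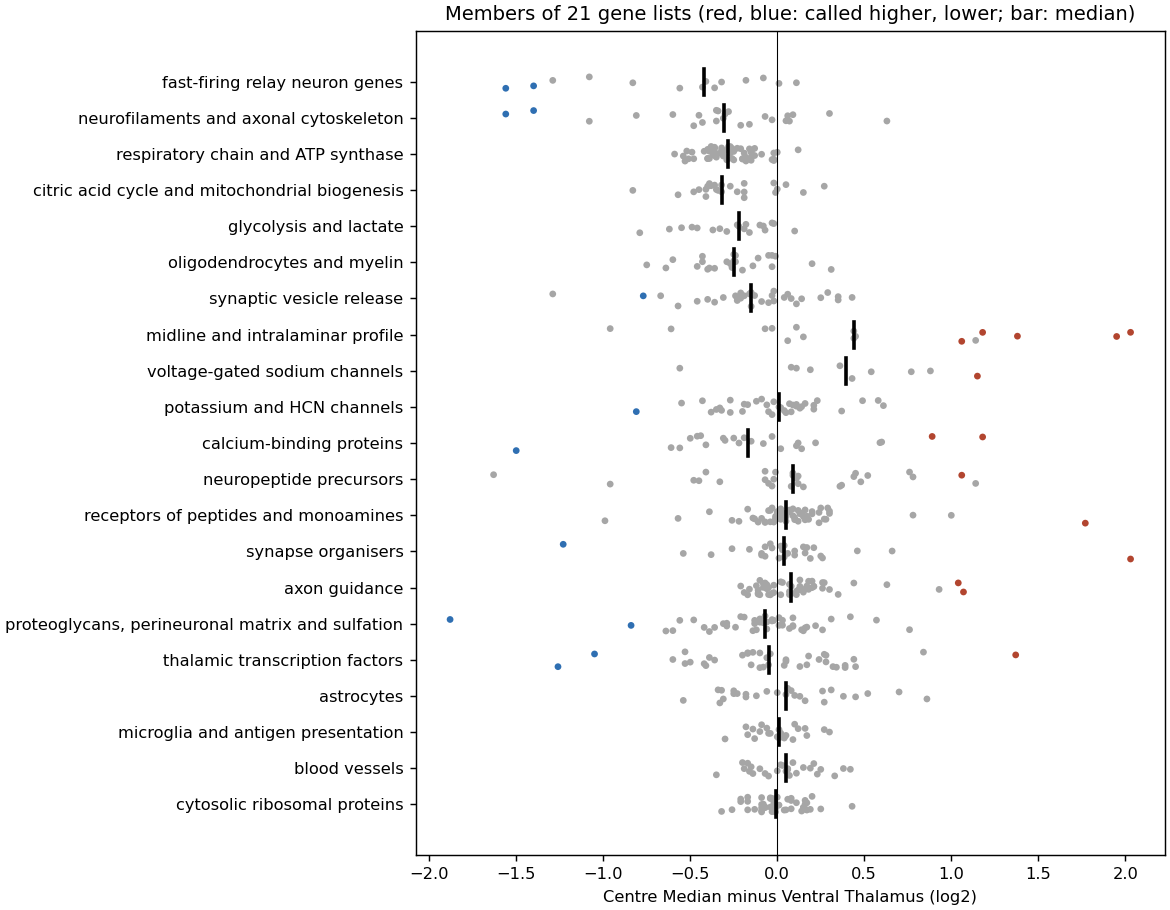
Differences between Centre Median and Ventral Thalamus (log2, x axis) of the measured members of 21 gene lists, with genes called higher in red, called lower in blue, all others in grey and a black bar at each median. The relay, cytoskeleton, energy and myelin lists have medians between -0.42 and -0.22, the sodium channel list lies at 0.40, and most other lists lie near 0.

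Synapse organisers, guidance molecules and matrix genes contained single strong differences around medians near 0. CBLN1 was called higher and NPTX2 lower among 29 organisers, and ADGRL2, an adhesion receptor of synapses, differed by 0.66 (adjusted p = 0.152). Synaptic vesicle release genes had a median of -0.15 with 25 of 35 below 0, and SV2B was the 1 called. That median was -0.32 with the actin covariate and -0.06 after quantile normalisation. EPHA4 and DPYSL3 were called higher among 55 axon guidance genes, of which 34 lay above 0, with 8 higher and 0 lower by unadjusted p below 0.05. EPHB6 differed by 0.63 (adjusted p = 0.0741) and the semaphorin receptor PLXNC1 by 0.93 (adjusted p = 0.319). Cadherins had 0 calls among 27, with 4 higher and 2 lower by unadjusted p below 0.05, and CDH9 differed by 0.92 (adjusted p = 0.0744). Among 47 proteoglycan, matrix and sulfation genes HS3ST1 and CHST15 were called lower, the heparan sulfate carrier SDC2 differed by 0.76 (adjusted p = 0.0956), and NDST4, another heparan sulfate enzyme, by 0.57 (adjusted p = 0.069).

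Transcription factors of the thalamus differed in both directions, with LMO1 called higher and SHOX2 and CITED2 lower among 39. At an unadjusted p under 0.05, 7 were higher and 9 lower. LEF1, which acts in Wnt signalling, had levels of 8.58 and 9.29 in Centre Median, against 7.97 and 8.22 in Ventral Thalamus (difference 0.84, adjusted p = 0.187). ZIC1, a zinc finger factor, had 9.80 and 10.11 in Centre Median and 10.71 and 10.40 in Ventral Thalamus (difference -0.60, adjusted p = 0.298). In the Wnt pathway list of 36, TPBG was called. WIF1, a secreted Wnt antagonist, had 5.79 and 5.97 in Centre Median and 4.63 and 4.86 in Ventral Thalamus (difference 1.13, adjusted p = 0.0896). Of the RAS-related list of 18, DIRAS3 and TMEM158 were called higher, while DIRAS2, a relative of DIRAS3, differed by -0.91 (adjusted p = 0.0627) and RASGRP1 by -0.94 (adjusted p = 0.0604).

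In the astrocyte, microglia, vessel, ribosomal and immediate early gene lists limma called 0 genes, which is near the 0.368% called among all genes. Astrocyte genes had a median of 0.05 over 27, with 5 higher and 3 lower by unadjusted p below 0.05, against 3.34% and 5.46% of all genes. GFAP, their intermediate filament, had levels of 10.35 and 11.44 in Centre Median, against 10.08 and 9.99 in Ventral Thalamus, and most of that gap came from replicate 2 (difference 0.86, adjusted p = 0.27). AQP4, their water channel, differed by 0.70 (adjusted p = 0.469). Microglia and antigen presentation genes ranged from -0.30 to 0.30 over 26 genes, with 0 in either direction at an unadjusted p under 0.05. Blood vessel genes ranged from -0.35 to 0.42 over 27. Cytosolic ribosomal proteins had a median of -0.01 over 47, which was 0.13 after quantile normalisation, so they have no settled direction. Immediate early genes had a median of -0.03 over 24, with DUSP6, a phosphatase that dampens ERK signalling, at -0.64 (adjusted p = 0.132).

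Size alone did not decide a call. At least a 2-fold difference was found for 36 genes, 18 in each direction, and 24 of them were called, 14 higher and 10 lower. Of the 12 others, 4 were higher, namely NTS, WIF1, EXOC5 and SNX7, and 8 were lower. EXOC5 and SNX7 are named here after their values were seen, as is WSB2, among the lower genes, with levels of 9.37 and 9.47 in Centre Median and of 10.54 and 10.49 in Ventral Thalamus (difference -1.10, adjusted p = 0.0509). For called genes with several probe sets the others could be compared: 18 of 22 other probe sets, in 13 genes, had the sign of the reported one, and 8 had at least 50% of its size. The opposite sign occurred for 1 probe set each of HS3ST1, KCND3, NGLY1 and RASGRP2.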

How the data were processed

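The deposited intensity values were made with RMA, per the submitters' processing notes (version not given), and their range shows a linear scale; whether all 10 arrays were normalised together is not stated. Of 22283 probe sets, 19065 had exactly 1 gene symbol in the platform annotation and were no controls (20114 were listed, 1043 with several genes). Each of 11963 genes was represented by its probe set of highest mean intensity, on the scale log2(value + 1), with no filter. limma 3.58.1 in R 4.3.3 fitted nucleus and replicate number to all 10 arrays, with a variance trend (4 residual and 8.66 prior degrees of freedom). The contrast uses the 4 arrays and the other 6 add only to the spread. Replicate numbers were treated as pairs because the replicate 2 minus 1 differences correlated at 0.758 to 0.831 in all 10 pairs of nuclei. In 1 simulated set limma called 23 of 50 genes changed 1.5-fold, 40 of 50 changed 2-fold and 49 of 50 changed 3-fold, with 5 false calls. The simulated noise was independent between arrays and held no difference of sex or RNA quality, so their effect on the calls was not tested there. Named genes were the 15 largest called differences in each direction, all genes called without the block, cell type markers, and in each of 40 lists the called members and up to 4 further members by size. Comparison, lists and rule were chosen with earlier results of these data known. Arrays carry no counts, so their number limits precision. Alternatives covered the block, arrays, pseudocount, filter, normalisation, probe sets, variance trend, actin signal and sex-linked split. No sequence or genome position is given. Figures used Python 3.11.15 and matplotlib 3.10.9.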

Additional observations from a re-analysis of the deposited data

How the results depend on the processing

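Of the 44 called genes, DIRAS3, LMO1, LRRC17, RYR3 and ST8SIA4 lay in the third of genes with the lowest mean level. In 19 other settings 0 of the 44 changed sign, although these 5 were not tested where the lowest intensities were left out. In some of these settings the difference is the same by construction, so its sign could not change. They are no block, the 4 arrays alone, no variance trend, the lowest intensities left out, and an array of another nucleus left out. Over these settings 252 of 831 gene results lost the call. The count of 44 became 1 with no replicate block, 524 (212 higher, 312 lower) with the 4 arrays alone, which leaves 1 residual degree of freedom, and 16 with the actin covariate. After quantile normalisation it was 34, of which 24 were higher and 10 lower, against 23 and 21 in the reported fit. It was 8 to 73 when 1 array was left out: 8 and 19 when the array was Centre Median replicate 1 or 2, 17 when it was Ventral Thalamus replicate 2, and 73 and 72 when it was Medial Thalamus replicate 1 or 2. The cause was not tested. MC4R was called in all 19 settings, and MC4R, TPBG and DIRAS3 in each blocked setting that tested them. HS3ST1 stood at -0.25, RASGRP2 at -0.23 and SHOX2 at -0.38 with the median of each gene's probe sets, and KCND3 at -0.00. A list median counted as moved when it changed by more than 1 SD between the replicate 1 and 2 medians of that list. This limit was narrow for glycolysis (-0.20 and -0.22) and wide for the respiratory chain (-0.12 and -0.42), so it does not rank lists by stability. Of 760 list medians, over 40 lists and 19 settings, 142 moved by this limit. Among the 8 lists of relay, intralaminar, cytoskeleton, energy, sodium channel and myelin genes these were, for the intralaminar profile, 0.78 with the actin covariate; for the citric acid cycle -0.22 after quantile normalisation; for glycolysis -0.09 after quantile normalisation, -0.18 with the median of probe sets, -0.26 with the actin covariate and -0.28 split by XIST and RPS4Y1; for sodium channels 0.25 with the median of probe sets; and for myelin -0.18 after quantile normalisation and -0.17 with the actin covariate. With 1 array left out the medians ranged from 0.12 to 0.47 for the intralaminar profile, from -0.27 to -0.20 for glycolysis and from 0.23 to 0.49 for sodium channels. Over all settings the range was -0.96 to -0.26 for relay genes, -0.43 to -0.13 for the axonal cytoskeleton, -0.43 to -0.16 for the respiratory chain and -0.32 to -0.03 for vesicle release, and the cytosolic ribosomal median changed sign (-0.11 to 0.15).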
